A study of Arabidopsis thaliana with 36 samples.

Results

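The plastid atpI-atpH-atpF-atpA operon of Arabidopsis thaliana was followed by chromatin immunoprecipitation and sequencing (ChIP-seq). Its 4 protein-coding genes were chosen by name, out of 128 plastid genes with distinct coordinates. No threshold on a measured value was used, but earlier results of these data were known. The genes lie on the reverse strand in the order atpI, atpH, atpF, atpA, and from the start of atpI to the end of atpA the operon spans 4833 bp. By locus they are atpI (ArthCp010, 750 bp), atpH (ArthCp009, 246 bp), atpF (ArthCp008, 1270 bp) and atpA (ArthCp007, 1524 bp).

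The operon encodes plastid-made subunits of the thylakoid ATP synthase, which uses the proton gradient built by photosynthetic electron transport to make ATP. atpI and atpH encode the membrane subunits a and c, atpF encodes a stalk subunit and carries an intron, and atpA encodes the catalytic-head subunit alpha. Plastid genes are transcribed by the plastid-encoded RNA polymerase (PEP), a bacterial-type enzyme, and by a nuclear-encoded phage-type polymerase, and atp genes are known to use both. RpoB is the beta subunit of PEP, and pTAC3 and pTAC14 are nuclear-encoded proteins associated with PEP.

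Chloroplasts were collected from pools of 50 whole seedlings, 5 days old, grown in continuous light and fixed with 4% formaldehyde for 4 h, and the study asked whether PEP binding to DNA needs pTAC3 or pTAC14. RpoB ChIP was done in ptac3 mutants and in Col-0, the wild-type line (the ptac3 experiment), and again in ptac14 mutants and in a further Col-0 group (the ptac14 experiment). pTAC3 ChIP was done in ptac3 mutants, in which the gene for the antigen is mutated, and in Col-0 (the pTAC3 experiment). Each of these 6 groups had 3 ChIP libraries and 3 input libraries, which were sequenced without immunoprecipitation. No other allele or treatment was named for the lines, and the mutant alleles are not given in the sources used here. A genotype tag reading wild type on every sample, mutants included, was set aside in favour of the titles and line names. The labels did not say that replicates came from separate sowings, so p-values measure only the spread between these libraries, which may be technical.

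Values are enrichments, the log2 ratio of ChIP to input coverage with each library scaled to its own mean over the plastid genome, so a value below 0 means a smaller share of ChIP than of input coverage. Mean coverage over the operon was 57.3 to 187 reads per position in mutant ChIP libraries and 52.9 to 648 in Col-0 ChIP libraries. It was 421 to 940 in mutant inputs and 327 to 740 in Col-0 inputs. At the mean coverage of a library, counting error at a single position was 7% to 13% in mutant ChIP libraries and 2.55% to 9.41% in Col-0 ChIP libraries, and it covers counting error only. Whole seedlings were pooled, so fewer bound genome copies and weaker binding per copy cannot be told apart.

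In every Col-0 group, RpoB or pTAC3, the ChIP signal along the operon had its summit at one place, in the spacer before atpH. Among the 98 bins of 50 bp that cover the operon (positions 9901 to 14800 of the coverage table), the bin at positions 13901 to 13950 was the highest in 0 of 9 mutant ChIP libraries and in 9 of 9 Col-0 ChIP libraries. Its centre lies 419 bp before the start of atpH and past the end of atpI, inside the 513 bp atpH-atpI spacer. The spacer was not raised throughout. For RpoB in Col-0 of the ptac3 experiment it also held the lowest operon bin of the group mean, at positions 13651 to 13700. That bin was also the lowest in replicate 2 of this group and in replicate 1 of pTAC3 ChIP in Col-0. In the Col-0 means of the ptac14 and pTAC3 experiments the lowest bin lay in atpI (14201 to 14250). The summit bin was singled out after its values were seen, so the figures that follow describe it without a test.

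**Figure D1:**
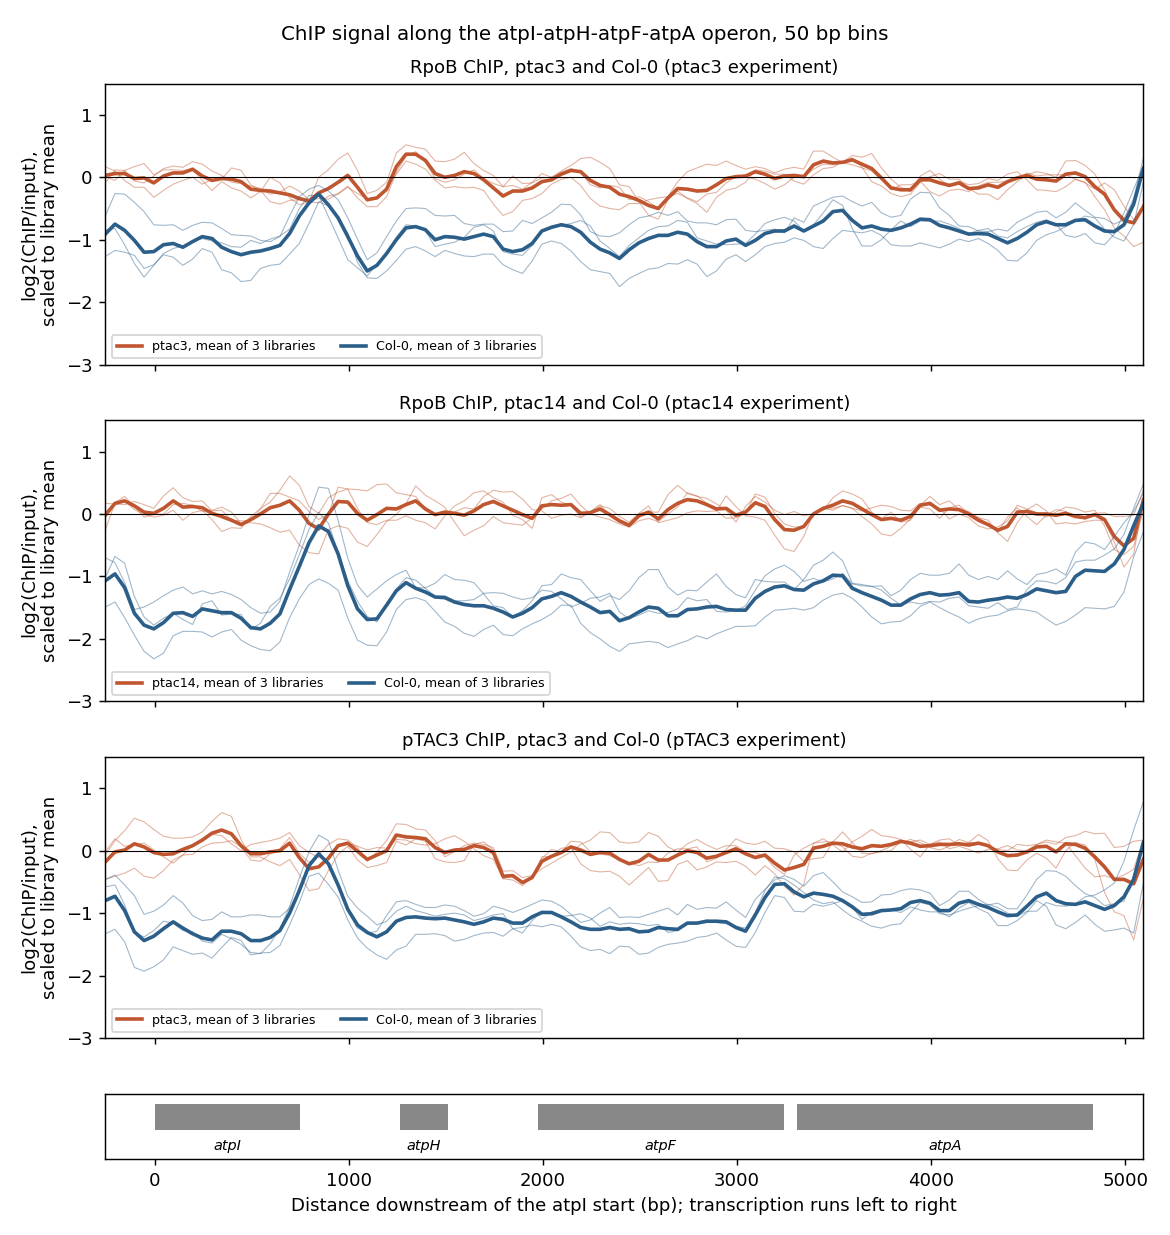
Enrichment (log2 ChIP/input, libraries scaled to their mean) in 50 bp bins against distance from the atpI start in bp, with genes drawn to scale; thin lines are libraries and thick lines means of 3. Over the operon, mutant mean lines run between -0.51 and 0.37 and have no summit at the place of the Col-0 one. Col-0 libraries have operon medians that average -0.94, -1.4 and -1.07 in the ptac3, ptac14 and pTAC3 experiments, with a summit between atpI and atpH. Scaled to the rpo genes or to their median bin, the libraries keep these shapes but the gap between the lines closes or reverses.

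Measured from the median bin of the operon in the same library, a difference that does not depend on how libraries are scaled, the summit bin stood at 0.00, -0.31 and -0.27 in RpoB ChIP of ptac3 and at 0.83, 0.55 and 0.62 in its Col-0. It stood at -0.16, -0.02 and -0.60 in RpoB ChIP of ptac14, against 1.53, 1.39 and 0.70 in its Col-0. In pTAC3 ChIP it stood at -0.12, -0.49 and -0.15 in ptac3, against 0.83, 1.29 and 0.95 in Col-0. Mutant and Col-0 libraries did not overlap in any experiment, and no mutant library lay above 0. The bin was chosen as the Col-0 summit, and how many other bins separate in this way was not counted. Over all plastid bins the SD averaged 0.24, 0.27 and 0.25 in the mutants of the ptac3, ptac14 and pTAC3 experiments. It averaged 0.96, 1.26 and 1.07 in their Col-0, so the separation is not shown to be particular to this bin. The Col-0 means correspond to a summit 1.59, 2.31 and 2.03 times the operon median in the ptac3, ptac14 and pTAC3 experiments. The highest mean enrichment of a mutant bin lay in atpH for RpoB in ptac3, at 0.37 (SD 0.14). It lay in atpF in ptac14, at 0.23 (SD 0.18), and in atpI in pTAC3 ChIP of ptac3, at 0.33 (SD 0.25). The SD over the operon bins, averaged over libraries, was 0.22 in ptac3 and 0.24 in Col-0 in the ptac3 experiment. It was 0.19 in ptac14 and 0.32 in Col-0, and for pTAC3 ChIP 0.21 in ptac3 and 0.29 in Col-0.

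The summit was below or near the library mean in the group means, although above most plastid bins of Col-0. Its enrichment averaged -0.25 ± 0.22 in ptac3 and -0.27 ± 0.13 in Col-0 for RpoB in the ptac3 experiment (SD, n = 3 each, as for every mean below). It averaged -0.24 ± 0.35 in ptac14 and -0.19 ± 0.76 in Col-0 in the ptac14 experiment, and -0.26 ± 0.30 in ptac3 and -0.05 ± 0.30 in Col-0 in the pTAC3 experiment. Single Col-0 libraries ran from 0.43 (replicate 1) to -1.04 (replicate 3) in the ptac14 experiment. In Col-0, 28%, 25.9% and 26.4% of all plastid bins in the ptac3, ptac14 and pTAC3 experiments were as high or higher. Input coverage at the bin was below the library mean in every line, for instance 0.832 ± 0.0614 in ptac14 and 0.81 ± 0.0736 in Col-0 in the ptac14 experiment, in units of the library mean.

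The same place is where mutant and Col-0 profiles met on the library-mean scale. With the limma test across all bins (adjusted p under 0.05, Benjamini-Hochberg), the mutant was above Col-0 in 93, 95 and 92 of the 98 operon bins and below it in 0 in the ptac3, ptac14 and pTAC3 experiments, where 67.8%, 70.1% and 67% of all plastid bins were above and 19.7%, 18.2% and 21.7% below. This holds on the library-mean scale only. Scaled to the median bin, the mutant was above Col-0 in 0, 10 and 11 operon bins and below it in 11, 9 and 9, where 10.8%, 24% and 25.4% of all bins were above and 35.8%, 37.9% and 38% below. Scaled to rpoB, rpoC1 and rpoC2, it was below Col-0 in 55, 82 and 80 operon bins and above it in 0, where 55.8%, 69% and 72.4% of all bins were below. On the library-mean scale, the bins that did not pass lay mainly together, from position 13851 to 14050 in the ptac3 experiment and from 13851 to 14000 in the other experiments, over the summit. Beyond these, 1 bin inside atpF (12151 to 12200) in the ptac3 experiment and 3 bins around the start of atpA and the end of atpF (11451 to 11600) in the pTAC3 experiment did not pass. Neighbouring bins share reads, so bin counts are extents and not independent observations.

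The whole atpH-atpI spacer was also set against the mean of atpH and atpI in the same library. This local contrast was added after the profile had been seen, and the spacer holds the summit bin. Its p-values come from the libraries that showed the summit, so they are not an independent test of it. In RpoB ChIP it was -0.13, -0.40 and -0.25 in ptac3, against 0.27, 0.06 and 0.03 in Col-0. In the ptac14 experiment it was 0.14, 0.13 and -0.45 in ptac14, against 0.72, 0.54 and 0.19 in Col-0. In pTAC3 ChIP it was -0.06, -0.33 and -0.08 in ptac3, against 0.19, 0.65 and 0.44 in Col-0. The highest mutant library was below the lowest Col-0 library in each experiment.

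The contrast fell by 0.38 (SE 0.12, limma adjusted p = 0.0181) in ptac3 and by 0.54 (SE 0.18, adjusted p = 0.0262) in ptac14 for RpoB, and by 0.59 (SE 0.12, adjusted p = 0.000699) for pTAC3 ChIP in ptac3. Among all 100 spacers of at least 100 bp, 21%, 22% and 23% fell in these comparisons, so a fall was not rare. All 3 mutant libraries lay below all 3 Col-0 libraries for 24%, 27% and 30% of spacers. The RpoB calls rest on few libraries. In the ptac3 experiment the call was lost without Col-0 replicate 1 (-0.30, adjusted p = 0.0822), without ptac3 replicate 2 (-0.31, adjusted p = 0.099) and without ptac3 replicate 3 (-0.38, adjusted p = 0.054). In the ptac14 experiment it was lost without Col-0 replicate 1 (-0.43, adjusted p = 0.15), Col-0 replicate 2 (-0.52, adjusted p = 0.10) or ptac14 replicate 3 (-0.35, adjusted p = 0.0953). The pTAC3 ChIP call held in all 6 fits that left out a replicate, with the highest adjusted p at 0.0123.

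Within Col-0 the spacer stood above its flanking genes for pTAC3 (0.43 ± 0.23, limma adjusted p = 0.000329) and for RpoB in the ptac14 experiment (0.48 ± 0.27, adjusted p = 0.00475), where 21% and 25% of spacers did so. It did not pass for RpoB in the ptac3 experiment (0.12 ± 0.13, adjusted p = 0.222), where 20% did. Without Col-0 replicate 1 the ptac14 experiment value was 0.37 (adjusted p = 0.0809). Among 89 spacers, counting the inverted repeat once, the atpH-atpI spacer ranked 22 in the ptac3 experiment, 18 in the ptac14 experiment and 16 in the pTAC3 experiment.

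**Figure D2:**
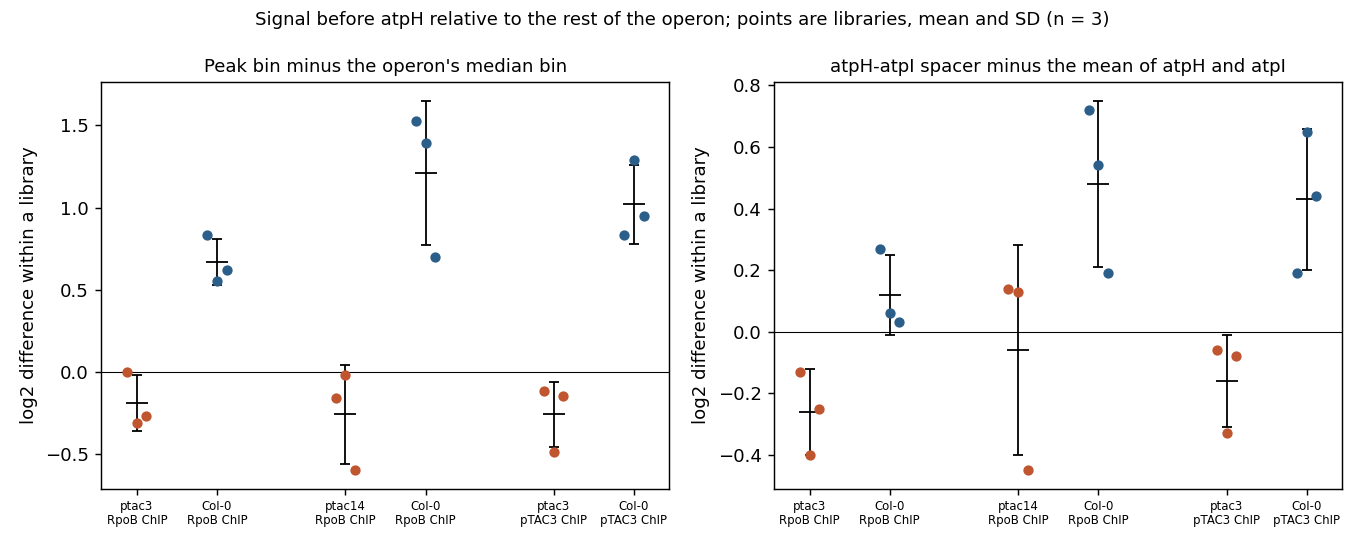
Left, enrichment of the summit bin minus that of the operon's median bin; right, the atpH-atpI spacer minus the mean of atpH and atpI, both as log2 differences within a library. Points are libraries with mean and SD (n = 3), and in both panels all 3 mutant libraries lie below all 3 Col-0 libraries of their experiment. How many other bins separate in the way of the left panel was not counted.

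The spacer before atpI had a lesser local maximum in Col-0, which passed against its flanking genes in 1 of 3 experiments. The highest bin of the 242 bp atpI-rps2 spacer in Col-0 was the same in each experiment (14951 to 15000, centred 206 bp before the start of atpI), at -0.75 ± 0.46, -0.96 ± 0.40 and -0.73 ± 0.46 in the ptac3, ptac14 and pTAC3 experiments. In the mutants the highest bin of this spacer lay elsewhere. Against its flanking genes atpI and rps2 the spacer stood at 0.11 ± 0.16 in ptac14 and 0.35 ± 0.23 in Col-0 in the ptac14 experiment, and this Col-0 value passed (limma adjusted p = 0.013). That call was lost without Col-0 replicate 2 (0.24, adjusted p = 0.0984) or Col-0 replicate 3 (0.33, adjusted p = 0.0817). In Col-0 of the ptac3 experiment (0.19 ± 0.29) and of the pTAC3 experiment (0.22 ± 0.26) it did not pass, although without Col-0 replicate 3 the ptac3 experiment value was 0.35 (adjusted p = 0.00184). It differed from Col-0 by -0.20, -0.24 and -0.22 in the mutants of the ptac3, ptac14 and pTAC3 experiments and passed in none, but without Col-0 replicate 3 the ptac3 experiment change was -0.36 (adjusted p = 0.0139). The 463 bp atpF-atpH spacer did not pass in any experiment, at -0.10 ± 0.03, -0.15 ± 0.09 and -0.03 ± 0.07 relative to its flanking genes in Col-0.

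Over the gene bodies, mutant ChIP signal was close to the genome-wide mean and Col-0 signal was below it. For atpI, the first gene, RpoB enrichment was -0.08, 0.01 and -0.13 in ptac3, against -1.37, -0.82 and -1.03 in Col-0. In the ptac14 experiment it was 0.16, 0.05 and -0.04 in ptac14, against -1.28, -1.53 and -1.96 in Col-0. pTAC3 enrichment on atpI was -0.01, 0.17 and 0.08 in ptac3, against -0.98, -1.31 and -1.54 in Col-0. Every Col-0 library was below every mutant library of its experiment, for atpI and for the other 3 genes, as for 53.9%, 59.4% and 54.7% of all genes in the ptac3, ptac14 and pTAC3 experiments.

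For atpH, RpoB enrichment was 0.41, 0.20 and 0.09 in ptac3, against -1.18, -0.54 and -0.91 in Col-0. It was 0.14, -0.11 and 0.26 in ptac14, against -1.07, -1.18 and -1.46 in Col-0. pTAC3 enrichment on atpH was 0.26, 0.04 and 0.13 in ptac3, against -0.87, -0.98 and -1.38 in Col-0. Among the 4 genes, atpH was the highest in ptac3 for RpoB (0.23 ± 0.16, against 0.00 ± 0.04 for atpA), but it is also the shortest and did not pass against input there.

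For atpF, RpoB enrichment averaged -0.11 ± 0.11 in ptac3 and -0.98 ± 0.32 in Col-0, and 0.07 ± 0.04 in ptac14 and -1.46 ± 0.36 in Col-0. pTAC3 enrichment on atpF averaged -0.07 ± 0.16 in ptac3 and -1.12 ± 0.24 in Col-0. For atpA, the last gene, RpoB enrichment averaged 0.00 ± 0.04 in ptac3 and -0.78 ± 0.22 in Col-0, and 0.01 ± 0.04 in ptac14 and -1.24 ± 0.31 in Col-0. pTAC3 enrichment on atpA averaged 0.06 ± 0.02 in ptac3 and -0.86 ± 0.18 in Col-0.

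**Figure D3:**
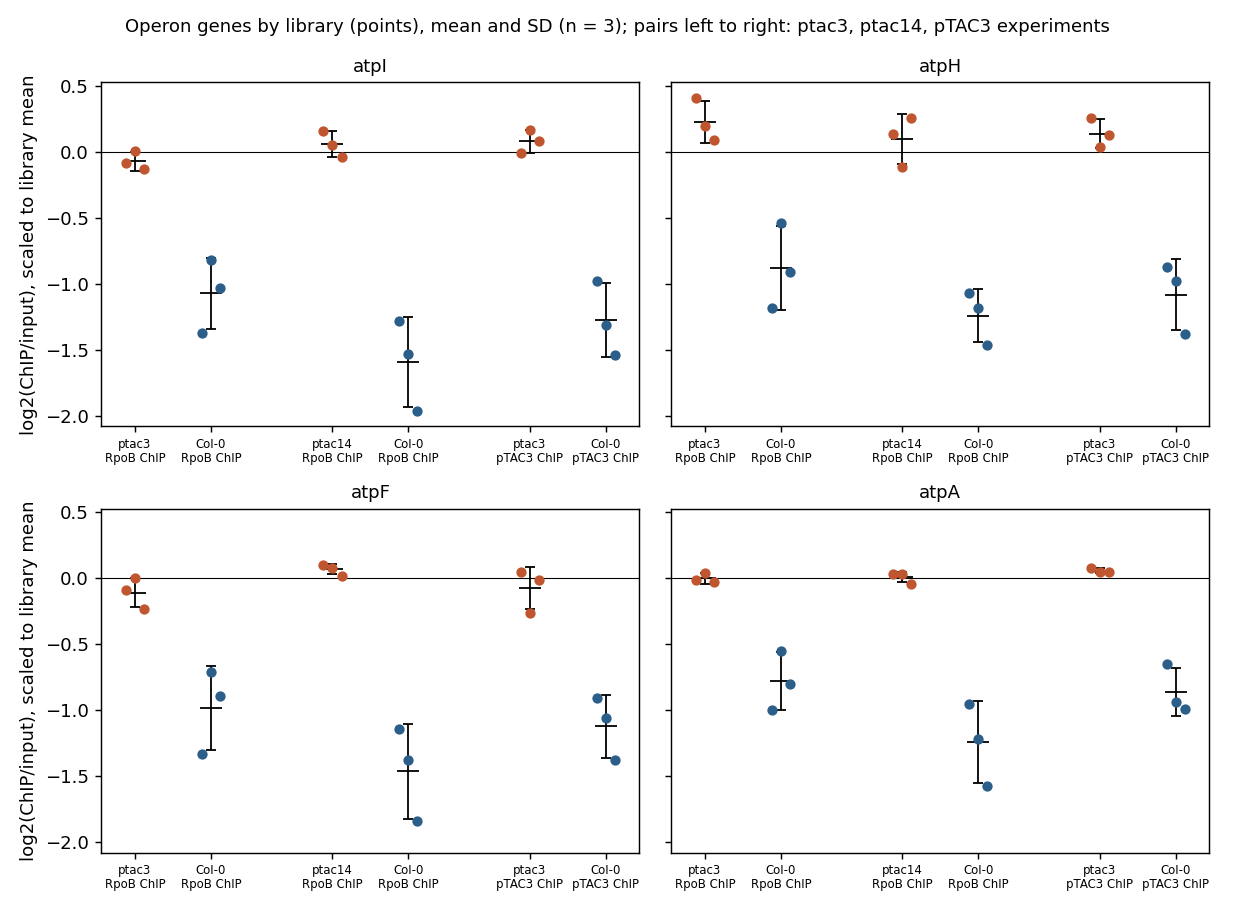
Enrichment (log2 ChIP/input, libraries scaled to their mean) of each operon gene; points are libraries, bars the mean and SD (n = 3), with each mutant left of its Col-0. Mutant libraries lie between -0.26 and 0.41 and Col-0 libraries between -1.96 and -0.54; with libraries scaled to rpoB, rpoC1 and rpoC2 the Col-0 means are the higher ones.

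In the mutants, 0 of the 4 genes differed between ChIP and input by limma's adjusted p in any experiment. Of all 128 genes 0%, 1.56% and 2.34% did in the ptac3, ptac14 and pTAC3 experiments, and 19, 14 and 12 genes at an unadjusted p under 0.05. With the replicate block 4 genes differed in the ptac14 experiment, against 2 without it, and 7 in the pTAC3 experiment, against 3. In Col-0, all 4 genes were lower in ChIP than in input in each experiment (limma adjusted p between 5.35e-09 and 9.18e-07), and so were 57%, 58.6% and 53.9% of all genes. The inputs gave 0 of 128 genes different between mutant and Col-0 in each experiment, with 1, 0 and 0 genes at an unadjusted p under 0.05. Scaled input coverage of atpI, for example, was 1.03 ± 0.0457 in ptac3 and 1.05 ± 0.0188 in Col-0 in the ptac3 experiment. In pTAC3 ChIP of ptac3, the line mutated in the gene for the antigen, the 4 genes lay between -0.07 and 0.14 on average.

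On the library-mean scale all 4 genes rose in the mutant in each experiment, a direction that reverses when libraries are scaled to rpoB, rpoC1 and rpoC2 while the call is lost for 4, 3 and 3 of the 4 genes when they are scaled to the median bin. The library-mean changes were largest for atpH in ptac3 (1.11, SE 0.17, limma adjusted p = 5.86e-06) and for atpI in ptac14 (1.65, SE 0.21, adjusted p = 1.85e-05) and in pTAC3 ChIP (1.36, SE 0.16, adjusted p = 4.85e-07). atpA changed least, by 0.78 (SE 0.15), 1.25 (SE 0.18) and 0.92 (SE 0.12) in the ptac3, ptac14 and pTAC3 experiments. Of all 128 genes, 53.9%, 56.2% and 52.3% rose on this scale. The median change of all genes was 0.60, 0.86 and 0.54, and that of the operon 0.94, 1.43 and 1.13.

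Values scaled to a library mean are relative, since coverage gained by some regions lowers the share of all others. The all-gene median of the change moved to -0.34, -0.55 and -0.44 with libraries scaled to their median bin. On that scale the operon was close to the typical bin in both lines. atpI changed by 0.06 (SE 0.08) in ptac3, atpH by 0.16 (SE 0.08), atpF by -0.08 (SE 0.07) and atpA by -0.16 (SE 0.07), and none passed, where 10.9% of all genes rose and 53.1% fell. Of the 4 genes, only atpI passed on that scale in the other experiments, at 0.24 (SE 0.08, limma adjusted p = 0.0171) in ptac14 and 0.38 (SE 0.09, adjusted p = 0.00313) in pTAC3 ChIP, where 18% and 16.4% of genes rose and 56.2% and 55.5% fell.

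The genes rpoB, rpoC1 and rpoC2, which encode PEP core subunits and are known to be transcribed largely by the nuclear-encoded polymerase, gave another yardstick. In Col-0 the atp genes stood above them in every library. atpI stood at -0.10, 0.05 and -0.07 in ptac3, against 0.49, 0.21 and 0.19 in Col-0 for RpoB in the ptac3 experiment. It stood at 0.17, 0.05 and 0.11 in ptac14, against 0.34, 0.53 and 0.86 in Col-0, and in pTAC3 ChIP at -0.02, 0.15 and 0.05 in ptac3, against 0.32, 0.50 and 0.29 in Col-0. atpA stood at -0.03, 0.08 and 0.03 in ptac3, against 0.86, 0.48 and 0.43 in Col-0 for RpoB in the ptac3 experiment. It stood at 0.04, 0.03 and 0.11 in ptac14, against 0.68, 0.85 and 1.25 in Col-0, and in pTAC3 ChIP at 0.07, 0.02 and 0.03 in ptac3, against 0.65, 0.87 and 0.84 in Col-0. Mutant and Col-0 libraries did not overlap for 3 of the 4 genes in the ptac3 experiment, with atpH the exception, and for 4 of 4 in the other experiments. On this scale all 3 mutant libraries lay below all 3 Col-0 libraries for 88.3%, 93.8% and 95.3% of all genes in the ptac3, ptac14 and pTAC3 experiments.

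Relative to these rpo genes, 4 of 4 atp genes were above input in Col-0 in each experiment, as were 93%, 95.3% and 95.3% of all genes. In the mutants, 3 of 4 fell in the ptac3 experiment and 4 of 4 in the ptac14 and pTAC3 experiments, where 80.5%, 89.1% and 95.3% of genes fell. The fall was 0.56 for atpA (SE 0.13, limma adjusted p = 0.00272) and 0.34 for atpI (SE 0.12, adjusted p = 0.0285) in ptac3, where atpH missed the threshold at -0.24 (SE 0.11, adjusted p = 0.0699). In ptac14 it was 0.87 for atpA (SE 0.18, adjusted p = 0.00112) and 0.47 for atpI (SE 0.16, adjusted p = 0.0172), and for pTAC3 ChIP 0.75 for atpA (SE 0.10, adjusted p = 2.54e-05) and 0.31 for atpI (SE 0.10, adjusted p = 0.0112). The operon's median fall, by 0.41, 0.69 and 0.54, was smaller than the all-gene median fall, by 0.74, 1.26 and 1.12.

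**Figure D4:**
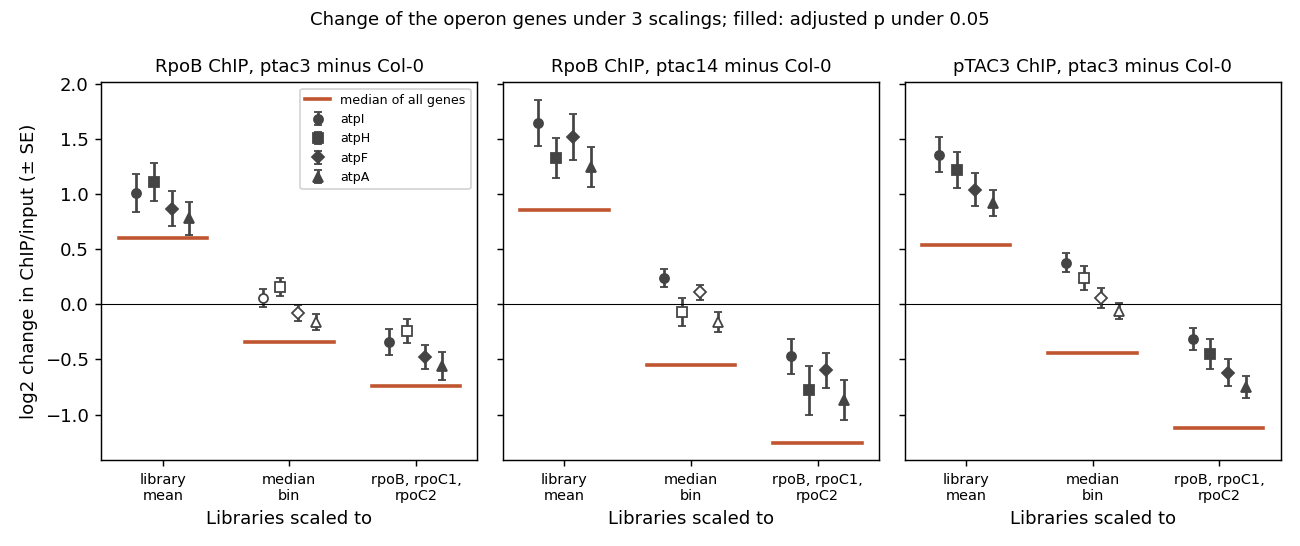
Mutant minus Col-0 difference of the log2 ChIP/input ratio (± SE) for the operon genes with libraries scaled in 3 ways, and the median of all 128 genes as a line. The genes lie above 0 scaled to the library mean, around 0 scaled to the median bin and below 0 scaled to rpoB, rpoC1 and rpoC2, and above the all-gene median each time.

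Within the operon the first gene, atpI, stood below the last, atpA, in Col-0, a difference within a library that does not depend on scaling. atpI minus atpA was -0.07, -0.03 and -0.10 in ptac3 and -0.37, -0.27 and -0.24 in Col-0 for RpoB in the ptac3 experiment. It was 0.13, 0.02 and 0.00 in ptac14 and -0.33, -0.32 and -0.39 in Col-0, and in pTAC3 ChIP -0.09, 0.13 and 0.03 in ptac3 and -0.33, -0.37 and -0.55 in Col-0. The first gene was below the last in 9 of 9 Col-0 ChIP libraries, by more than in any mutant library of its experiment. Other gene pairs of the plastid genome were not counted in this way. Enrichment over all plastid bins also spread more widely in Col-0 than in the mutants, so this is not shown to be particular to the operon. The genes between them were not graded in order. atpF minus atpA was -0.08, -0.04 and -0.20 in ptac3 and -0.33, -0.15 and -0.09 in Col-0 for RpoB in the ptac3 experiment, and in pTAC3 ChIP it was -0.03, -0.31 and -0.06 in ptac3 and -0.26, -0.12 and -0.39 in Col-0, so these mutant and Col-0 libraries overlapped. In the ptac14 experiment it was 0.07, 0.05 and 0.06 in ptac14 and -0.19, -0.17 and -0.28 in Col-0, without overlap. atpH, the second gene, stood above atpI in both lines for RpoB in the ptac3 experiment, by 0.30 ± 0.16 in ptac3 and 0.20 ± 0.08 in Col-0. In the ptac14 experiment atpH minus atpI was 0.04 ± 0.24 in ptac14 and 0.35 ± 0.14 in Col-0, and in pTAC3 ChIP 0.06 ± 0.20 in ptac3 and 0.20 ± 0.12 in Col-0. atpH minus atpF was 0.34 ± 0.15 in ptac3 and 0.10 ± 0.10 in Col-0 for RpoB in the ptac3 experiment, and 0.03 ± 0.22 in ptac14 and 0.22 ± 0.16 in Col-0 in the ptac14 experiment, where atpH was the higher in 3 of 3 Col-0 libraries. In pTAC3 ChIP it was 0.22 ± 0.08 in ptac3 and 0.04 ± 0.04 in Col-0. Among 79 protein-coding genes, with the inverted repeat counted once, atpI ranked 61, 63 and 67 from the highest and atpA 33, 41 and 37 in Col-0 of the ptac3, ptac14 and pTAC3 experiments.

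pTAC3 and RpoB drew closely similar profiles over the operon in Col-0. Across the 98 bins, Pearson's r of the group means was 0.82 and 0.89 between pTAC3 and RpoB of the ptac3 and ptac14 experiments, and 0.85 between both RpoB groups. Between a mutant and its own Col-0 it was 0.30 in the ptac3 experiment, -0.07 in the ptac14 experiment and -0.14 in the pTAC3 experiment. Between mutant groups it was 0.48 for RpoB and pTAC3 ChIP in ptac3, and 0.27 for RpoB in ptac14 with each of these. These are descriptions over neighbouring bins that share reads. Gene by gene, pTAC3 enrichment in Col-0 was compared with the mean RpoB enrichment of both RpoB experiments. The antibody and the experiment cannot be told apart in this comparison. pTAC3 minus RpoB was 0.06 (SE 0.21) for atpI, -0.02 (SE 0.19) for atpH, 0.10 (SE 0.20) for atpF and 0.15 (SE 0.16) for atpA. None passed, and neither did any of the 128 genes by limma's adjusted p (0%), with 9 at an unadjusted p under 0.05.

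The RpoB change was larger in ptac14 than in ptac3 by 0.64 (SE 0.27) for atpI, 0.23 (SE 0.26) for atpH, 0.65 (SE 0.27) for atpF and 0.47 (SE 0.23) for atpA on the library-mean scale. None of these differences passed (limma adjusted p = 0.237 for atpI, atpF and atpA and 0.528 for atpH), and 0% of 128 genes did, with 23 at an unadjusted p under 0.05. Their Col-0 groups differed in the same direction, with atpI at -1.59 ± 0.34 in the ptac14 experiment and -1.07 ± 0.27 in the ptac3 experiment. The sign of the difference between mutants was not kept over 11 alternative settings, other scalings among them. It ran from -0.14 to 0.70 for atpI, -0.55 to 0.25 for atpH, -0.12 to 0.71 for atpF and -0.31 to 0.50 for atpA.

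In Col-0 the neighbours past atpA were strongly unlike the operon, and those before atpI were closer to it in level. Past the end of atpA, trnG and trnR encode transfer RNAs, and RpoB enrichment of trnG was -0.10, 0.01 and -0.04 in ptac3 and 1.51, 1.32 and 1.22 in Col-0. trnG fell by 1.39, 1.20 and 1.35 in the ptac3, ptac14 and pTAC3 experiments (limma adjusted p at most 2.4e-05). trnR fell by 0.64 in the ptac3 experiment and by 0.55 in the pTAC3 experiment, and its change of -0.11 in the ptac14 experiment did not pass. The signal climbed over the last bins after atpA in Col-0. On the other side, rps2, a ribosomal protein gene, and rpoC2 were lower than atpI in RpoB ChIP of Col-0, at -1.25 ± 0.44 and -1.25 ± 0.37 in the ptac3 experiment and -1.88 ± 0.55 and -2.01 ± 0.50 in the ptac14 experiment. atpI minus rps2 was above 0 in all 3 Col-0 libraries of both RpoB experiments, by 0.17 ± 0.17 and 0.29 ± 0.22. In Col-0 of the pTAC3 experiment it was -0.01, 0.24 and 0.01 (0.08 ± 0.14), so atpI and rps2 were not separated there.

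The other plastid ATP synthase genes, atpB (subunit beta) and atpE (subunit epsilon), sit in a separate operon. atpB resembled the genes described here, at 0.06 ± 0.07 in ptac3 and -0.87 ± 0.26 in Col-0 for RpoB, and it rose on the library-mean scale by 0.93, 1.23 and 0.81 in the 3 experiments. atpE was higher than atpB in Col-0, at 0.01 ± 0.16 in ptac3 and -0.22 ± 0.16 in Col-0 for RpoB, and its change of 0.23, 0.37 and 0.02 did not pass. Over 29 photosynthesis genes outside this operon, 19, 20 and 17 rose and 3, 2 and 3 fell on the library-mean scale, with median changes of 0.63, 0.90 and 0.56. Of all genes 53.9%, 56.2% and 52.3% rose and 34.4%, 31.2% and 37.5% fell, with median changes of 0.60, 0.86 and 0.54.

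The 4 genes whose enrichment lay nearest to the operon's over the 18 ChIP libraries were ycf1, petA, ycf3 and ndhA. Their root mean square difference from the mean of the 4 genes was 0.10, 0.11, 0.11 and 0.12 log2 units, against a median of 0.39 over all genes. The members themselves lay 0.10 to 0.15 from that mean, so these 4 genes were as near to it as the operon's own genes.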

How the data were processed

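The authors deposited whole-number read coverage per position of the plastid genome (154477 positions, 36 libraries), entered as other because it is neither a read count nor normalized, as read from the values. Per the submitters' processing notes, Trim Galore 0.4.1, Bowtie2, bedtools 2.25.0 and build TAIR10 were named, without role or order. Filters on duplicate or repeat reads are not given in the sources used here. Gene names and spans came from RefSeq for TAIR10.1. Its positions were checked by mirroring 15 gene pairs of the inverted repeat, whose coverage steps aligned best with no shift (0 bp) in 36 of 36 libraries.

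Coverage was averaged over genes, spacers and 50 bp bins, scaled to the library mean and log2 transformed with a pseudocount of 5% of that mean. Bins whose input was below 10% of the median bin were dropped. limma 3.58.1 (R 4.3.3, lmFit and eBayes, two-sided) was fitted to the 12 libraries of an experiment over all features, without replicate blocks. pTAC3 was compared with RpoB in a fit to all Col-0 libraries, and the mutants in a fit to both RpoB experiments. The fit was tested on simulated data in which most features did not change. Effects of library scaling were not simulated. The threshold was a Benjamini-Hochberg adjusted p of 0.05. Same-numbered ChIP and input libraries were subtracted for the values by library only. The exact permutation test was not used, since 3 against 3 libraries cannot go below 0.1. Of 36 replicate pairs 0 were identical. The named genes were the 4 members, 2 neighbours on each side, atpB, atpE, the rpo genes used for scaling and the 5 genes nearest in level, of which 1 is not reported here. Members, lists and comparisons were chosen with earlier results of these data known.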

Additional observations from a re-analysis of the deposited data

How the results depend on the processing

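Mean plastid coverage reached its lowest value, 59.2 reads per position, in a mutant ChIP library, scaling decides the direction of the gene changes, and 3 libraries a group leave the RpoB spacer calls dependent on single libraries. Under pseudocounts of 1% and 25%, other fits, 1 copy of the inverted repeat, the replicate block and leaving out each replicate, the 4 genes kept their direction and side of the threshold for ChIP against input in Col-0 and for mutant against Col-0 in all 360 recomputed values. Under the other scalings 35 of 48 reversed in sign, whether or not the new value passed, 9 kept their sign but lost their call and 4 did neither. Some reversed values did not pass, such as atpF at 0.00 in Col-0 of the ptac14 experiment scaled to the median bin (limma adjusted p = 0.956). Beyond the choice of scale, the cause was not tested.

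Scaled to rpoB, rpoC1 and rpoC2, mutant minus Col-0 for atpI, atpH, atpF and atpA was -0.34, -0.24, -0.48 and -0.56 in the ptac3 experiment, -0.47, -0.78, -0.60 and -0.87 in the ptac14 experiment, and -0.31, -0.45, -0.62 and -0.75 in the pTAC3 experiment. ChIP minus input in Col-0, in the same gene order, was 0.30, 0.49, 0.39 and 0.59, then 0.58, 0.93, 0.71 and 0.92, then 0.37, 0.57, 0.53 and 0.79. Scaled to the median bin, the reversed changes were atpF -0.08 and atpA -0.16 in the ptac3 experiment, atpH -0.07 and atpA -0.16 in the ptac14 experiment, and atpA -0.06 in the pTAC3 experiment. The reversed Col-0 values were atpH 0.08 and atpA 0.18 in the ptac3 experiment, atpH 0.22, atpF 0.00 and atpA 0.21 in the ptac14 experiment, and atpA 0.14 in the pTAC3 experiment.

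The atpH-atpI spacer reversed too. Scaled to the rpo genes its change was -0.67, -1.17 and -0.96 and its Col-0 value 0.51, 1.24 and 0.90 in the ptac3, ptac14 and pTAC3 experiments. Scaled to the median bin its change was -0.27, -0.46 and -0.28 and its Col-0 value 0.10, 0.53 and 0.25.

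Counts of genes that differ between ChIP and input within a mutant were small and unstable. In the ptac3 experiment 0 became 7 with 1 copy of the repeat, 8 with a pseudocount of 25%, 1 with ratios of same-numbered libraries, 2 with an ordinary variance and 0 to 13 leaving out a replicate. In the ptac14 experiment 2 became 0 scaled to the rpo genes, 5 with 1 copy, 6 with a pseudocount of 25%, 4 with the replicate block, 8 with all 36 libraries in 1 fit, 0 with the mean of log2 bins per gene and 0 to 10 leaving out a replicate. In the pTAC3 experiment 3 became 0 scaled to the rpo genes, 6 with 1 copy, 7 with the replicate block, 1 with all 36 libraries, 1 with an ordinary variance, 1 with the mean of log2 bins and 0 to 6 leaving out a replicate. The count for the RpoB change between ptac14 and ptac3 was 0, and 0 to 3 leaving out a replicate. The share of all bins changed in the ptac3 experiment, 87.6%, became 46.6% scaled to the median bin and 55.8% scaled to the rpo genes. The local contrast in Col-0 of the ptac14 experiment passed for 56 spacers, and for 37 to 56 leaving out a replicate, with 37 without Col-0 replicate 3.

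In alternatives chosen after seeing the data, the summit bin was the highest in 9 of 9 Col-0 libraries with a pseudocount of 1% or the mean input of the group, and in 8 with 25%. Replicate numbers did not pair all libraries: of 54 same-numbered pairs 23 correlated over 0.1, from -0.53 to 0.77. Same-numbered mutant and Col-0 ChIP libraries did correlate in the ptac14 experiment (0.59, 0.41 and 0.77) and in the pTAC3 experiment (0.60, 0.16 and 0.18), but not in the ptac3 experiment (-0.38, -0.20 and 0.04). The replicate block changed no call of the 4 genes or of the local contrast of the atpH-atpI and atpI-rps2 spacers, and it left 113, 112 and 115 genes changed in the ptac3, ptac14 and pTAC3 experiments and moved no other count by over 1.5 times. Ratios of same-numbered libraries could not be fitted for the input comparison.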
